A study of Mus musculus with 18 samples.

Results

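The genes described here are 10 factors with which the gut epithelium and the phagocytes beneath it hold back bacteria. They are Reg3b, Reg3g, Retnlb, Ang4, Lcn2, Saa1, Saa3, Duox2, Duoxa2 and Nos2. They were taken by symbol from a table of 35405 mouse genes, and 1 row was found for each. All 10 passed the filter on low counts, which left 20855 genes for testing. They were read in 18 RNA sequencing libraries of mouse colon in 3 groups of 6. The groups are IBC (read from the study's title as isobavachalcone, a plant chalcone), TNBS (the hapten trinitrobenzene sulfonic acid, which sets off colitis) and vector (the controls, also named control in the table). From the title, the study asks whether isobavachalcone eases TNBS colitis through GPR84, PI3K and AKT. The labels give no strain, sex, age, genotype, dose or time, and no label states whether TNBS was given to the IBC animals as well. Nor is it stated that the 6 libraries of a group come from separate animals, so p-values measure the spread between libraries.

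Reg3b and Reg3g are C-type lectins that bind the cell wall of bacteria and are secreted into the mucus layer, and both are known targets of interleukin 22 acting through STAT3. Retnlb, a resistin-like protein of goblet cells, and Ang4, a ribonuclease with antimicrobial activity, are known in mice as genes of the type 2 response to worms. Lcn2, a lipocalin, withholds iron by binding bacterial siderophores, and is made by neutrophils as well as by epithelium. Saa1 and Saa3 are serum amyloid A proteins, acute-phase carriers of lipids and retinol, with Saa3 also made by macrophages and adipocytes. Duox2 is the epithelial oxidase that releases hydrogen peroxide, and Duoxa2 is the maturation factor it needs to reach the cell surface. Nos2 makes nitric oxide and is expressed by inflamed epithelium and by macrophages. In whole tissue, fewer cells of a type and less RNA per cell cannot be told apart.

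The table places Reg3b at chr6:78347640-78350449 on the plus strand and Reg3g at chr6:78443252-78445855 on the minus strand, without naming its genome build. In the same coordinates Duox2 lies at chr2:122109728-122128930 on the minus strand and Duoxa2 at chr2:122129381-122133366 on the plus strand. This pair runs head to head, with 451 bases from the end of the Duox2 gene to the start of the Duoxa2 gene. Saa3 lies at chr7:46361422-46365124 and Saa1 at chr7:46389921-46392404, both on the minus strand. The others are Lcn2 at chr2:32274645-32277809 and Ang4 at chr14:52001335-52011047, both on the minus strand, and Nos2 at chr11:78811613-78851080 and Retnlb at chr16:48637219-48639255, both on the plus strand. Saa1 and Saa2 are near-identical neighbours and Ang4 belongs to a family of close copies, so how reads were shared among those copies is uncertain.

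Promoter sequence from RefSeq (build GRCm38.p6) was matched to 8 of the 10 genes, each as 300 bases from 250 before the start to 50 after it. The windows of Reg3b and Reg3g are printed because these 2 genes moved together more closely than any other pair described here. Those of Lcn2 and Saa3 are printed because they form the second pair. Capitals mark matches, on either strand, to a STAT motif (TTCNNNGAA), the NF-kB consensus, a C/EBP motif (TTGCNNAA) or a TATA box (TATAAA). No printed match overlaps another.
Reg3b: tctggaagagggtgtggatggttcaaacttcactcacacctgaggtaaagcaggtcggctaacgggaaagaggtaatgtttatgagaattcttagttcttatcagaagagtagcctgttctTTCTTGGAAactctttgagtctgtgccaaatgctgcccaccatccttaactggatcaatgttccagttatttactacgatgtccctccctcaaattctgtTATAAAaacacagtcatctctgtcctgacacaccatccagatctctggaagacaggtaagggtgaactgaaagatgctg
Reg3g: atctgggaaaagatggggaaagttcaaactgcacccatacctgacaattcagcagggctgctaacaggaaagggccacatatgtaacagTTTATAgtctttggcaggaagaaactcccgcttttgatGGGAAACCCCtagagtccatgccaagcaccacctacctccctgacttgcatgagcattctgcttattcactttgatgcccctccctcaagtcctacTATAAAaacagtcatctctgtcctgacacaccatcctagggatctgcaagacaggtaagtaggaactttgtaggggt
Lcn2: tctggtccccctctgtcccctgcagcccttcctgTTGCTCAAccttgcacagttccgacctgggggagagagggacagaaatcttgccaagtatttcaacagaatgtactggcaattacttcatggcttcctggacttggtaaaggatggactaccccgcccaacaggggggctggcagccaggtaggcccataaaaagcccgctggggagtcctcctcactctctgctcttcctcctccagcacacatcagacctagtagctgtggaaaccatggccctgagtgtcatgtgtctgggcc
Saa3: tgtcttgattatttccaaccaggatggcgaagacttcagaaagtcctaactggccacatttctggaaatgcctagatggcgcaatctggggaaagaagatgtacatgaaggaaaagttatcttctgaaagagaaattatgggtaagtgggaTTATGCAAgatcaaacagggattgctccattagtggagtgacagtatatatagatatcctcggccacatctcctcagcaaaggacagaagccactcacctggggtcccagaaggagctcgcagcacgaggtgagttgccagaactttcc
These windows are chr6:78370635-78370934 on the plus strand for Reg3b, chr6:78468825-78469124 on the minus strand for Reg3g, chr2:32387690-32387989 on the minus strand for Lcn2 and chr7:46715627-46715926 on the minus strand for Saa3, in GRCm38.p6, whose coordinates for these genes differ from those of the table. The Reg3b and Reg3g windows were identical in 207 of 304 aligned columns, or 68.1%, and both hold a TATA box, at -29 to -24 in Reg3b and at -27 to -22 in Reg3g from the start, with a second match in Reg3g at -161 to -156. The STAT match lies in Reg3b at -129 to -121, and the NF-kB match lies in Reg3g at -123 to -114. Among 32851 promoter windows of the same length, 8.3% hold the STAT motif, 4.51% the NF-kB consensus, 10.8% the C/EBP motif and 13.6% the TATA box. The C/EBP motif was found at -216 to -209 in Lcn2, at -182 to -175 in Saa1 and at -99 to -92 in Saa3. In the other windows a TATA box was found in Duoxa2, a STAT match in Ang4 and none of the motifs in Duox2. A match is a string of letters and was not tested as a binding site.

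Each library held between 55.7 and 78.9 times 1e6 counts. The libraries IBC 2, IBC 5, TNBS 2, TNBS 3, vector 3 and vector 4 had Hoxb13, a Hox gene expressed towards the rear end of the gut, at no more than 1.44 CPM, against 123 to 598 CPM in the other 12 (CPM, counts per 1e6 counts of the scaled total). These 2 sets are not groups of the study, but they are given beside the results because several of the genes followed them. The expected tissue markers were present, with 10 of 10 colon epithelium markers above 0 in every library. Pancreatic acinar markers summed to 24782 CPM in vector 6 and to at most 385 CPM in the other 17 libraries, and vector 3 stood out with 17.98% of its counts in mitochondrial genes.

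Per length, Retnlb had the highest median over the 18 libraries and Nos2 the lowest, in FPKM (fragments per kilobase and per 1e6 fragments). Over the 18 libraries the median FPKM was 479.7 for Retnlb, 165 for Saa1, 19.8 for Reg3b and 15.2 for Ang4. The median FPKM was 14.2 for Duox2, 10.8 for Duoxa2 and 5.53 for Reg3g, and then 3.23 for Saa3, 1.14 for Lcn2 and 0.771 for Nos2. By the mean, Reg3b was the highest, at 1705 FPKM against 742 for Retnlb. The ranges of every 2 neighbours by median in this order overlapped. The order hides how unevenly the genes were spread over libraries. Reg3b ran over a 111488-fold range of CPM and Reg3g over a 24869-fold range, Ang4 over 5597-fold and Saa3 over 462-fold, while Duox2 stayed within 7.27-fold. The lowest values of Reg3b, Reg3g and Saa3 were all in vector 1 and rest on 13, 12 and 17 counts, so the size of these ranges is uncertain. Within groups the SD of log2 CPM was 5.56 for Reg3b, 4.58 for Reg3g, 3.38 for Ang4 and 2.21 for Retnlb, against 0.466 for the median gene tested. The SD of Duox2 was 0.749, which 81.5% of the genes tested fell below.

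**Figure D1:**
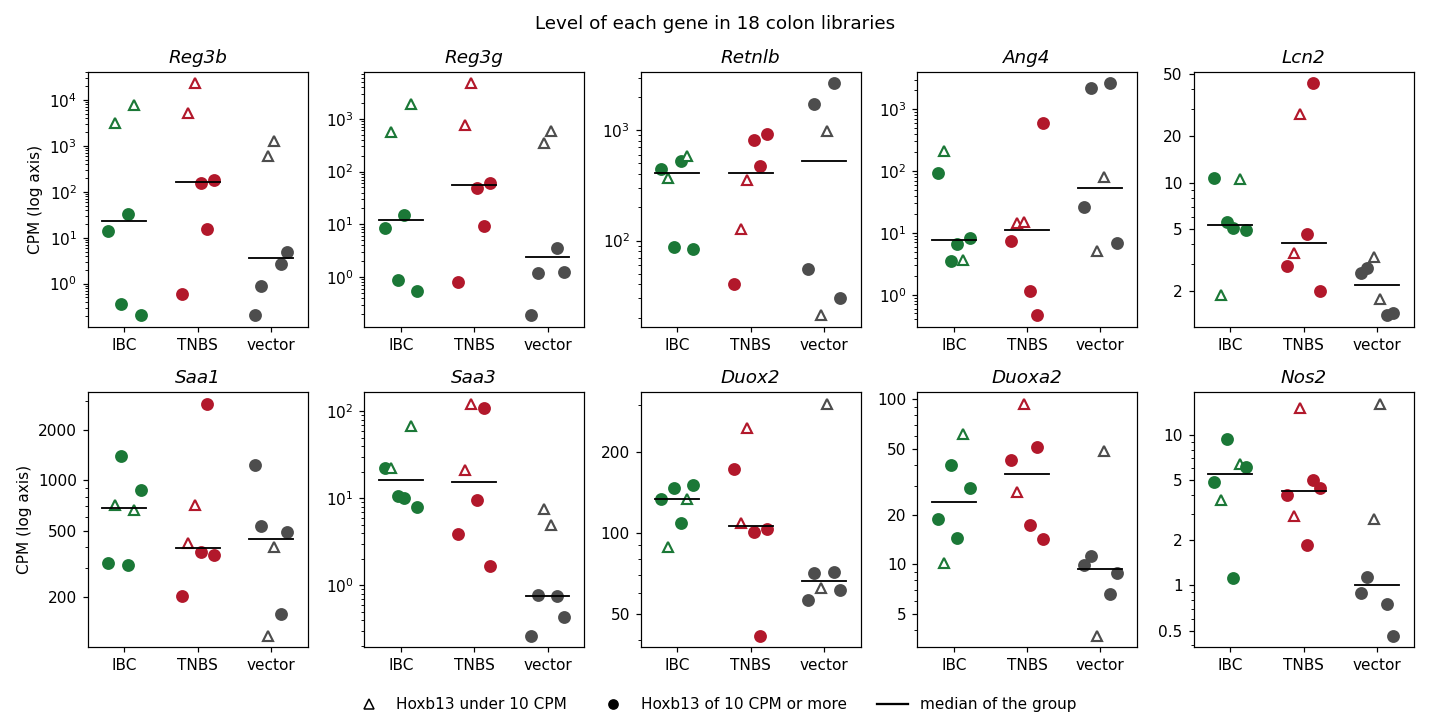
Level of each of the 10 genes in counts per 1e6 counts (CPM, log axis) in the 6 IBC, 6 TNBS and 6 vector libraries. Each point is a library, open triangles are the 6 libraries with Hoxb13 under 10 CPM, filled circles are the other 12, and lines are group medians. Reg3b and Reg3g separate by Hoxb13 in every group, and the 6 IBC libraries lie above the 6 vector libraries for Saa3.

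How the colitis model bears on these genes is asked by setting TNBS against vector. Among the 10 genes 8 had a higher fitted level in TNBS and 2, Retnlb and Ang4, a lower one, but 0 passed edgeR's quasi-likelihood test after adjustment over all genes tested. Over all genes 4 of 20855 passed, or 0.0192%. At an unadjusted p under 0.05 there were 3 of the 10, namely Lcn2, Saa3 and Duoxa2, and 17.8% of all genes. DESeq2 called Lcn2 and Saa3 among the 10, and 574 genes in all. The median log2 fold change was 1.11 for the 10 genes and -0.01 for all genes tested. None of the 10 had TNBS and vector libraries wholly apart, as 1.17% of all genes did. Without TNBS 6, edgeR called Lcn2 and Saa3, with 323 genes called in all.

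The comparison of IBC with TNBS asks how these genes differ between the groups. It bears on the effect of the compound in colitis only if the IBC animals also received TNBS, which no label states. All 10 fitted log2 fold changes lay below 0, from -0.02 to -1.40, although those of Saa1, Nos2 and Duox2 turned above 0 when libraries were scaled by their totals alone, and 7 of the 10 did with the replicate number as a block. None passed edgeR's test (adjusted p from 0.925 to 0.996) or had an unadjusted p under 0.05, where 3.93% of all genes did. Of all genes tested edgeR called 0%, and DESeq2 called 2 genes, none of them among the 10. None of the 10 had IBC and TNBS libraries apart, against 0.149% of all genes. The median was -0.72 for the 10 genes and 0.00 for all genes.

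The comparison of IBC with vector gave the same 8 genes higher and 2 lower, with the vector libraries shared with the first comparison and the IBC libraries with the second. Again 0 of the 10 passed edgeR's test, as did 0% of all genes, with the smallest adjusted p over all genes at 0.125. At an unadjusted p under 0.05 there were Lcn2, Saa3 and Ang4, and 8.53% of all genes. DESeq2 called 186 genes, none of them among the 10. Saa3 was the gene of the 10 whose IBC and vector libraries did not overlap, as 1.08% of all genes did not. The median was 0.75 for the 10 genes and -0.01 for all genes.

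**Figure D2:**
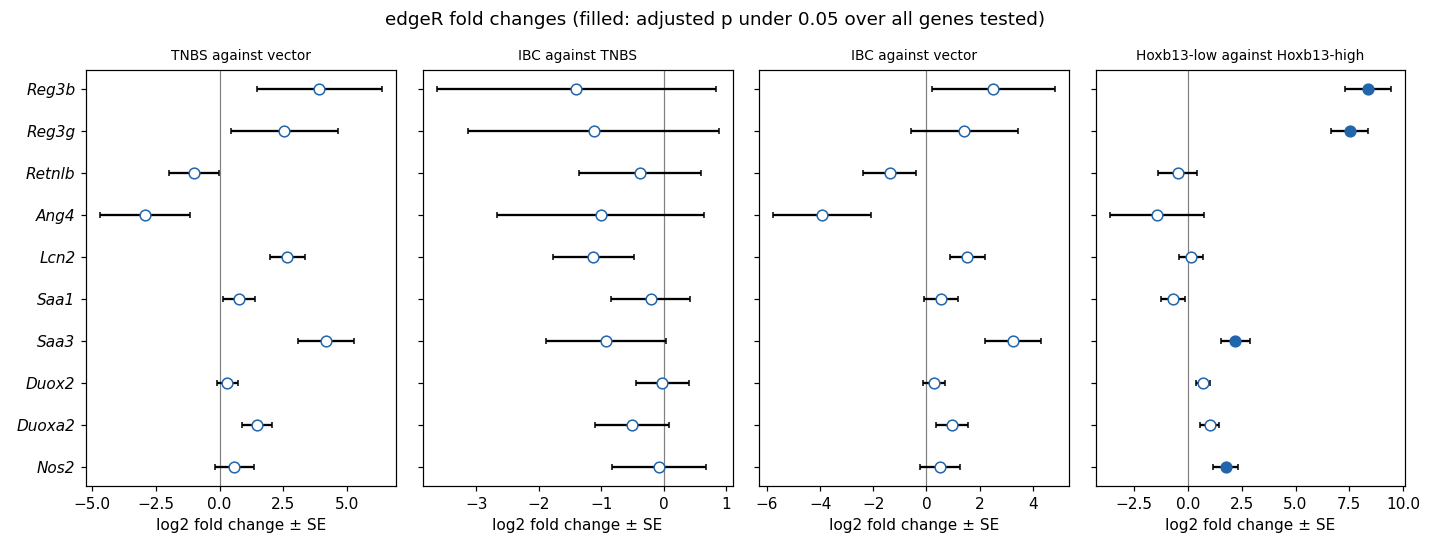
edgeR log2 fold changes of the 10 genes with their standard errors (horizontal bars) in 4 comparisons, from left to right TNBS against vector, IBC against TNBS, IBC against vector, and the 6 libraries low in Hoxb13 against the 12 high in it. The horizontal axis differs between panels, and filled points have an adjusted p under 0.05. Filled points are seen in the last panel alone, for Reg3b, Reg3g, Saa3 and Nos2.

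Reg3b, the first of the lectins, was between 0.210 and 7593 CPM in IBC libraries with a median of 23.0, between 0.581 and 22679.5 CPM in TNBS libraries with a median of 167, and between 0.203 and 1267 CPM in vector libraries with a median of 3.70. In each group the 2 libraries low in Hoxb13 held the 2 highest values, and the groups overlapped. In TNBS 3 it took 2.12% of all counts and was the second most counted gene, and in IBC 5 it ranked 3 by counts. Among the libraries high in Hoxb13, Reg3b was 0.210, 0.357, 13.7 and 32.4 CPM in IBC, 0.581, 15.6, 157 and 176 CPM in TNBS, and 0.203, 0.880, 2.61 and 4.78 CPM in vector. The 4.78 CPM belongs to vector 6, the library with pancreatic markers, and the pancreas also makes Reg proteins. Their part in that value was not tested. The log2 fold change of TNBS against vector was 3.92 ± 2.46 (SE; edgeR adjusted p = 0.396). With the Hoxb13 set as a term in the fit it was 4.94 ± 1.27 (edgeR adjusted p = 0.0714). That of IBC against TNBS was -1.40 ± 2.23 (edgeR adjusted p = 0.957), and without TNBS 3 it was 0.68.

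Reg3g followed Reg3b across libraries. It was between 0.538 and 1944 CPM in IBC libraries with a median of 11.9, between 0.819 and 4669.9 CPM in TNBS libraries with a median of 54.5, and between 0.188 and 591 CPM in vector libraries with a median of 2.42. The same 2 libraries of each group were highest, and the groups overlapped. The log2 fold change of TNBS against vector was 2.55 ± 2.09 (SE; edgeR adjusted p = 0.514). Without TNBS 3 it was 0.13, and with the Hoxb13 set as a term it was 3.69 ± 0.99 (edgeR adjusted p = 0.0777). Per length, the level of Reg3g over that of Reg3b was 0.1001 and 0.138 in the 2 IBC libraries low in Hoxb13, 0.0768 and 0.111 in the 2 TNBS libraries, and 0.252 and 0.317 in the 2 vector libraries. In the libraries high in Hoxb13 the median of this ratio was 0.865 in IBC, 0.251 in TNBS and 0.603 in vector. Some of these ratios rest on few counts, such as 13 of Reg3b and 12 of Reg3g in vector 1, or 16 and 41 in IBC 6. IBC against TNBS gave -1.12 ± 2.00 for Reg3g (edgeR adjusted p = 0.965), and 1.29 without TNBS 3. IBC against vector gave 1.42 ± 2.01 for Reg3g and 2.52 ± 2.32 for Reg3b (SE; edgeR adjusted p = 0.909 and 0.842), and that of Reg3g was -0.40 without IBC 5.

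Retnlb and Ang4 were the 2 genes with a lower fitted level in both TNBS and IBC. Retnlb was between 84.2 and 582 CPM in IBC libraries with a median of 409, between 40.3 and 931 CPM in TNBS libraries with a median of 413, and between 21.0 and 2652 CPM in vector libraries with a median of 523. Vector libraries held both the highest and the lowest values, so the vector range enclosed those of IBC and TNBS. Fitted log2 fold changes were -1.001 ± 0.981 for TNBS against vector and -1.38 ± 0.99 for IBC against vector (SE; edgeR adjusted p = 0.584 and 0.770). On log2(FPKM + 1) with limma these were 0.31 and 0.28. Ang4 was between 3.52 and 208 CPM in IBC libraries with a median of 7.57, between 0.464 and 606 CPM in TNBS libraries with a median of 11.0, and between 5.18 and 2598 CPM in vector libraries with a median of 53.4. Its highest values stood in vector 5 (2598), vector 2 (2169.8) and TNBS 6 (606), while the other 15 libraries had at most 208 CPM. For Ang4 the log2 fold change was -2.92 ± 1.76 for TNBS against vector and -3.93 ± 1.84 for IBC against vector (SE; edgeR adjusted p = 0.375 and 0.580). Without TNBS 6 the first became -6.73 (edgeR adjusted p = 0.0733), and IBC against TNBS, at -1.005 ± 1.655 with it, became 2.80. Goblet cell markers summed to 57328 CPM in vector 5, 43511 in vector 2 and 28788 in TNBS 6, against 10811.7 to 28523.5 CPM in the other 15 libraries. Of the 5 Paneth cell markers in the table, the intelectin Itln1, which goblet cells also make, followed the same 3 libraries, with 1973, 1079.5 and 519 CPM in vector 5, vector 2 and TNBS 6 and at most 94.5 CPM elsewhere. The defensins Defa24 and Defa30 were at 0 in all 3, at most 0.316 CPM anywhere. Mmp7 did not follow them, at 0.681 CPM in vector 5, 0.299 in vector 2 and 1.27 in TNBS 6 against 92.8 in TNBS 3, and Lyz1 had 10.4, 36.6 and 9.31 CPM in vector 5, vector 2 and TNBS 6. The part of either list in the levels of Ang4 and Retnlb was not tested.

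Lcn2 was between 1.89 and 10.7 CPM in IBC libraries with a median of 5.33, between 2.00 and 43.7 CPM in TNBS libraries with a median of 4.11, and between 1.395 and 3.33 CPM in vector libraries with a median of 2.21. TNBS 5 (43.7) and TNBS 3 (27.7) stood above all others, 5 of 6 IBC libraries lay above all vector libraries, and IBC 2 lay among them. For Lcn2, TNBS against vector gave a log2 fold change of 2.65 ± 0.69, IBC against TNBS -1.12 ± 0.65 and IBC against vector 1.53 ± 0.66 (SE; edgeR adjusted p = 0.113, 0.925 and 0.537). In the first of these, DESeq2 gave an adjusted p of 0.00245 and edgeR without TNBS 6 an adjusted p of 0.0380. Among libraries high in Hoxb13, the 4 IBC libraries had 4.95 to 10.7 CPM of Lcn2 and the 4 vector libraries 1.395 to 2.81. Lcn2 is stored by neutrophils, and neutrophil markers summed to 29.3 to 256 CPM in IBC, 97.3 to 973 in TNBS and 5.76 to 159 in vector, highest in TNBS 5. All 10 of those markers had a higher fitted level in TNBS than in vector at an unadjusted p under 0.05, with 0 called by edgeR after adjustment, and 5 of the 10 were at 0 in vector 6. Their part in the Lcn2 values was not tested.

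Saa3 was between 7.98 and 67.0 CPM in IBC libraries with a median of 16.4, between 1.69 and 123 CPM in TNBS libraries with a median of 15.2, and between 0.266 and 7.53 CPM in vector libraries with a median of 0.766. All 6 IBC libraries lay above all 6 vector libraries, and 4 of 6 TNBS libraries did. On the log2 scale the difference was 4.18 ± 1.09 for TNBS against vector, an 18.1-fold difference of fitted levels, and 3.25 ± 1.04 for IBC against vector (SE; edgeR adjusted p = 0.113 and 0.358). With the Hoxb13 set as a term, Saa3 rose by 4.92 ± 0.92 in TNBS against vector (SE; edgeR adjusted p = 0.0328), in a fit that called 0.681% of all genes. When each library was left out of that fit in turn, Saa3 was called in 6 of 12 cases, with adjusted p from 0.00656 to 0.0918, and not without TNBS 3, vector 1, vector 2, vector 3, vector 5 or vector 6. IBC against TNBS gave -0.93 ± 0.96 (SE; edgeR adjusted p = 0.926). Macrophage markers summed to 380 to 1227 CPM in IBC, 398 to 1986 in TNBS and 192 to 760.1 in vector, and adipocyte markers to 262 to 1771 CPM in IBC, 135 to 1810.2 in TNBS and 228 to 1229 in vector. Their part in the Saa3 values was not tested.

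Saa1 had a higher level per length than Saa3 in every library, and its groups overlapped. It was between 311 and 1401 CPM in IBC libraries with a median of 687, between 202 and 2889 CPM in TNBS libraries with a median of 395, and between 117 and 1243 CPM in vector libraries with a median of 443. TNBS 5 stood far above the next TNBS library, at 711 CPM, and vector 1 far above the next vector library, at 531 CPM. The log2 fold change of TNBS against vector was 0.75 ± 0.64 (SE; edgeR adjusted p = 0.525), and -0.23 without TNBS 5. IBC against vector gave 0.54 ± 0.63 and IBC against TNBS -0.21 ± 0.63 (SE; edgeR adjusted p = 0.880 and 0.981), and without TNBS 5 IBC against TNBS gave 0.80. Per length, Saa3 over Saa1 had a median of 0.0304 in IBC, 0.0300 in TNBS and 0.00294 in vector. Hepatocytes are known as the main source of Saa1, and their 6 markers summed to 3.45 to 42.4 CPM in IBC, 2.27 to 57.1 in TNBS and 3.11 to 52.7 in vector, with up to 3 at 0. The highest sums of IBC and TNBS were in IBC 3 and TNBS 5, which also had the most Saa1 of their groups. In vector the highest sum, 52.7 CPM, was in vector 6, and vector 1, with the most Saa1 of vector, had 48.2 CPM. In the libraries low in Hoxb13, Saa1 ran from 117 to 711 CPM while the sums ran from 2.27 to 4.24 CPM. The part of hepatocytes in the Saa1 values was not tested. Saa2, the near copy of Saa1, was no higher than 0.687 CPM in any library.

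Duox2 was between 88.6 and 150.5 CPM in IBC libraries with a median of 134, between 41.6 and 246 CPM in TNBS libraries with a median of 106, and between 56.3 and 303 CPM in vector libraries with a median of 66.6. Vector 4 alone had 303 CPM, and the other 5 vector libraries, at 56.3 to 71.4 CPM, lay below all 6 IBC libraries and below 5 of 6 TNBS libraries. Duox2 had a log2 fold change of 0.31 ± 0.42 for TNBS against vector and of -0.02 ± 0.42 for IBC against TNBS, while IBC against vector gave 0.29 ± 0.42 (SE; edgeR adjusted p = 0.707, 0.996 and 0.914). Without vector 4 the comparisons with vector gave 1.00 for TNBS and 0.98 for IBC (edgeR adjusted p = 0.203 and 0.455). Duoxa2 was between 10.2 and 61.4 CPM in IBC libraries with a median of 23.8, between 14.2 and 94.4 CPM in TNBS libraries with a median of 35.05, and between 3.68 and 48.8 CPM in vector libraries with a median of 9.35. All 6 TNBS libraries and 5 of 6 IBC libraries exceeded all vector libraries but vector 4. Duoxa2 had a log2 fold change of 1.47 ± 0.60 for TNBS against vector and of -0.51 ± 0.59 for IBC against TNBS, while IBC against vector gave 0.96 ± 0.60 (SE; edgeR adjusted p = 0.231, 0.937 and 0.716). Without vector 4, Duoxa2 gave 2.36 for TNBS against vector (edgeR adjusted p = 0.130).

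Duoxa2 and Duox2 did not keep a fixed proportion. Per length, Duoxa2 over Duox2 was 0.490 to 1.95 in IBC with a median of 0.705, 0.582 to 5.23 in TNBS with a median of 1.06, and 0.250 to 0.746 in vector with a median of 0.642. The 5.23 belongs to TNBS 5, where Duox2 was at 41.6 CPM, its lowest of all 18 libraries, and Duoxa2 at 51.2 CPM. Duox1 and Duoxa1, the paralogous pair, were low in this tissue. Duox1 averaged 1.32 ± 0.61 CPM in IBC, 1.26 ± 0.69 in TNBS and 1.21 ± 0.92 in vector, and Duoxa1 2.32 ± 0.74 CPM in IBC, 3.21 ± 1.00 in TNBS and 1.396 ± 0.957 in vector (SD, n = 6 each). Neither was called by edgeR, with Duoxa1 at an adjusted p of 0.154 for TNBS against vector.

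Nos2 was between 1.12 and 9.37 CPM in IBC libraries with a median of 5.52, between 1.87 and 15.1 CPM in TNBS libraries with a median of 4.24, and between 0.464 and 16.2 CPM in vector libraries with a median of 1.01. All 6 TNBS and all 6 IBC libraries lay above the vector median, but vector 4, at 16.2 CPM, was the highest of all 18. Nos2 had a log2 fold change of 0.58 ± 0.76 for TNBS against vector and of -0.08 ± 0.76 for IBC against TNBS, while IBC against vector gave 0.51 ± 0.76 (SE; edgeR adjusted p = 0.689, 0.992 and 0.916). Without vector 4, TNBS against vector gave 2.21 (edgeR adjusted p = 0.161), and without TNBS 3 it gave -0.02. Without TNBS 3, IBC against TNBS gave 0.53 for Nos2 and 0.27 for Duox2. Among libraries high in Hoxb13, Nos2 was 1.12 to 9.37 CPM in 4 IBC, 1.87 to 4.99 in 4 TNBS and 0.464 to 1.13 in 4 vector libraries. In those 8 libraries of TNBS and vector, Saa3, Nos2 and Duoxa2 did not overlap between groups, as 5.31% of all genes did not. Likewise Lcn2, Saa3, Duox2 and Duoxa2 did not overlap between the 4 IBC and 4 vector libraries, as 11.8% of all genes did not. None of the 10 passed edgeR's test in a fit of the libraries high in Hoxb13 alone, where TNBS against vector gave 5.80 for Saa3 (adjusted p = 0.150) and IBC against vector gave 2.76 for Nos2 (adjusted p = 0.0604).

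Set by Hoxb13 and with the study group as a term, 7 of the 10 genes had a higher fitted level in the 6 low libraries than in the 12 high ones. Reg3b, Reg3g, Saa3 and Nos2 rose, and 0 fell. Over all genes edgeR called 15.6%, so calls were common in this comparison. Reg3b averaged 6746 ± 8222 CPM in the 6 libraries low in Hoxb13 and 33.7 ± 62.9 CPM in the 12 high ones (SD), and rose by 8.37 ± 1.08 on the log2 scale (SE; edgeR adjusted p = 4.33e-05). Reg3g averaged 1479 ± 1662 CPM in the low and 12.5 ± 20.3 CPM in the high libraries, and rose by 7.52 ± 0.86 (edgeR adjusted p = 1.2e-05). Every low library exceeded every high one for both, which held for 2.88% of all genes in either direction and for no other gene of the 10. Saa3 rose by 2.21 ± 0.67 and Nos2 by 1.76 ± 0.59 (edgeR adjusted p = 0.0313 and 0.0493). Reg3b and Reg3g were called whichever library was left out. Saa3 was called in 10 of 18 such cases, and not without IBC 5, IBC 6, TNBS 3, vector 1, vector 2, vector 3, vector 5 or vector 6 (log2 fold change over the 18 cases 1.94 to 3.08, adjusted p up to 0.0914). Nos2 was called in 5 of 18 cases, those without IBC 2, IBC 3, IBC 5, TNBS 2 or TNBS 5 (log2 fold change 0.92 without vector 4 to 2.11, adjusted p up to 0.160). With the replicate number as a block neither was called (edgeR adjusted p = 0.172 for Saa3 and 0.259 for Nos2), nor with no study group in the fit (0.344 for Saa3 and 0.155 for Nos2), and Nos2 was not with no filter on low counts (0.0778).

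The remaining genes did not pass that test. Duoxa2 gave 1.01 ± 0.45, Duox2 0.72 ± 0.33 and Lcn2 0.15 ± 0.57 (SE; edgeR adjusted p = 0.139, 0.152 and 0.891), and Lcn2 gave -0.23 without TNBS 3 and values just below 0 without IBC 5 or vector 3. Saa1 gave -0.67 ± 0.56, Retnlb -0.46 ± 0.90 and Ang4 -1.44 ± 2.19 (SE; edgeR adjusted p = 0.463, 0.782 and 0.711), and Ang4 gave 1.02 without TNBS 6. Cell type markers moved with the Hoxb13 sets too. Colon epithelium markers summed to 14890 to 29644 CPM in the 6 low libraries and 8835 to 16198 in the 12 high ones, with 2 of 10 called up, Car1 and Krt20. Most of that difference was Car1, which averaged 8744 CPM in the low and 979 CPM in the high libraries, against 1603 and 1471 CPM for Epcam. Adipocyte markers were called up in 7 of 8, monocyte and macrophage markers called down in 7 of 10 and smooth muscle markers called up in 4 of 6. Small intestine markers summed to 185 to 289 CPM in the low and 62.6 to 186 CPM in the high libraries, with 2 of the 4 tested called up. Pancreatic acinar markers summed to 18.6 to 33.2 CPM in the low and 91.0 to 24782 CPM in the high libraries, and hepatocyte markers to 2.27 to 4.24 CPM in the low and 10.2 to 57.1 CPM in the high. All 10 neutrophil markers had a lower fitted level in the low libraries, with 1 called, and summed to 5.76 to 492 CPM there and 49.2 to 973 CPM in the high ones. The part of these cell types in the values of the 10 genes was not tested.

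**Figure D3:**
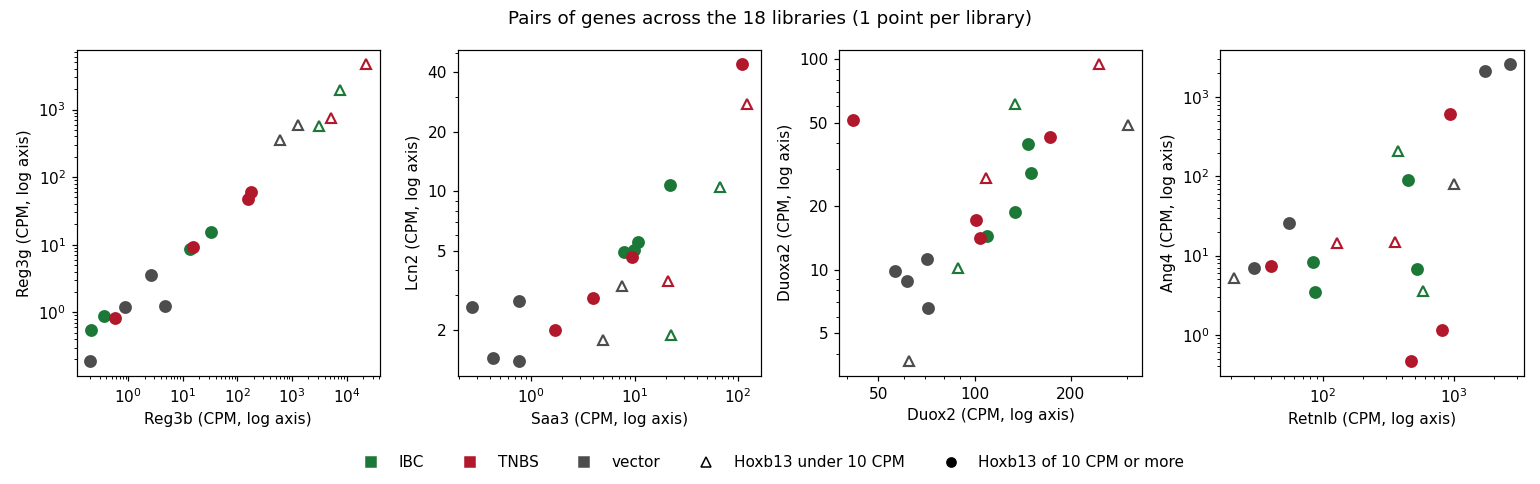
Levels of 4 pairs of genes in CPM on log axes, 1 point per library, coloured by group, with open triangles for the 6 libraries low in Hoxb13. From left to right, Reg3g follows Reg3b over the whole range, Lcn2 follows Saa3 at its high end, Duoxa2 and Duox2 are both high in vector 4 while TNBS 5 lies at the left edge for Duox2, and Ang4 is highest where Retnlb is high in vector 2, vector 5 and TNBS 6.

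Across the 18 libraries some of the genes varied together within groups. Correlations are of log2 CPM over n = 18 libraries with the means of group and Hoxb13 set removed, and the points share a tissue and differ in its cell makeup, so they are descriptions. Each group has 2 libraries low in Hoxb13, which mirror each other once their mean is removed, so fewer than 18 values are independent. Pearson's r was 0.96 between Reg3b and Reg3g, 0.91 between Lcn2 and Saa3, and 0.76 between Nos2 and Duoxa2. Duox2 had r = 0.58 with Duoxa2 and 0.55 with Nos2, but over the 12 libraries high in Hoxb13 alone these were -0.12 and 0.098. Retnlb had r = 0.59 with Ang4. Retnlb also had r = 0.70 with Reg3g, where without removing the Hoxb13 sets it was 0.24. Reg3b had r = -0.26 with Duoxa2 and -0.33 with Nos2. Over the 12 libraries high in Hoxb13 these were -0.81 and -0.63, and with group means alone removed over all 18 they were 0.098 and 0.35. With the summed neutrophil markers, r was 0.90 for Duoxa2, 0.74 for Saa1, 0.72 for Nos2, 0.71 for Lcn2 and 0.57 for Saa3. It was -0.20 for Reg3b, -0.15 for Reg3g, -0.37 for Ang4, 0.075 for Retnlb and 0.24 for Duox2. With group means alone removed, r was 0.61 for Duoxa2, 0.72 for Saa1, 0.048 for Nos2, 0.56 for Lcn2 and -0.02 for Saa3. For Reg3b and Reg3g it was -0.46 and -0.47, and for Duox2, Ang4 and Retnlb -0.03, -0.17 and 0.096. In some libraries S100a8 and S100a9 were a small part of the neutrophil sum, as in TNBS 6, with 0.155 and 0.838 of 108 CPM. How far the sum follows neutrophil number was not tested. The summed macrophage markers gave 0.71 for Duoxa2, 0.74 for Saa1, 0.57 for Nos2, 0.73 for Lcn2 and 0.74 for Saa3. With group means alone removed, these ran from -0.15 for Saa3 to 0.58 for Saa1. For Reg3b, Reg3g and Ang4 the macrophage markers gave -0.38, -0.33 and -0.37, and for Duox2 and Retnlb -0.02 and 0.02. With group means alone removed, Reg3b and Reg3g had -0.76 and -0.75, Ang4 -0.18, Duox2 -0.25 and Retnlb 0.03. With the summed goblet cell markers, r was 0.80 for Retnlb, 0.71 for Ang4 and 0.69 for Reg3g. With group means alone removed, these were 0.79, 0.70 and 0.26.

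**Figure D4:**
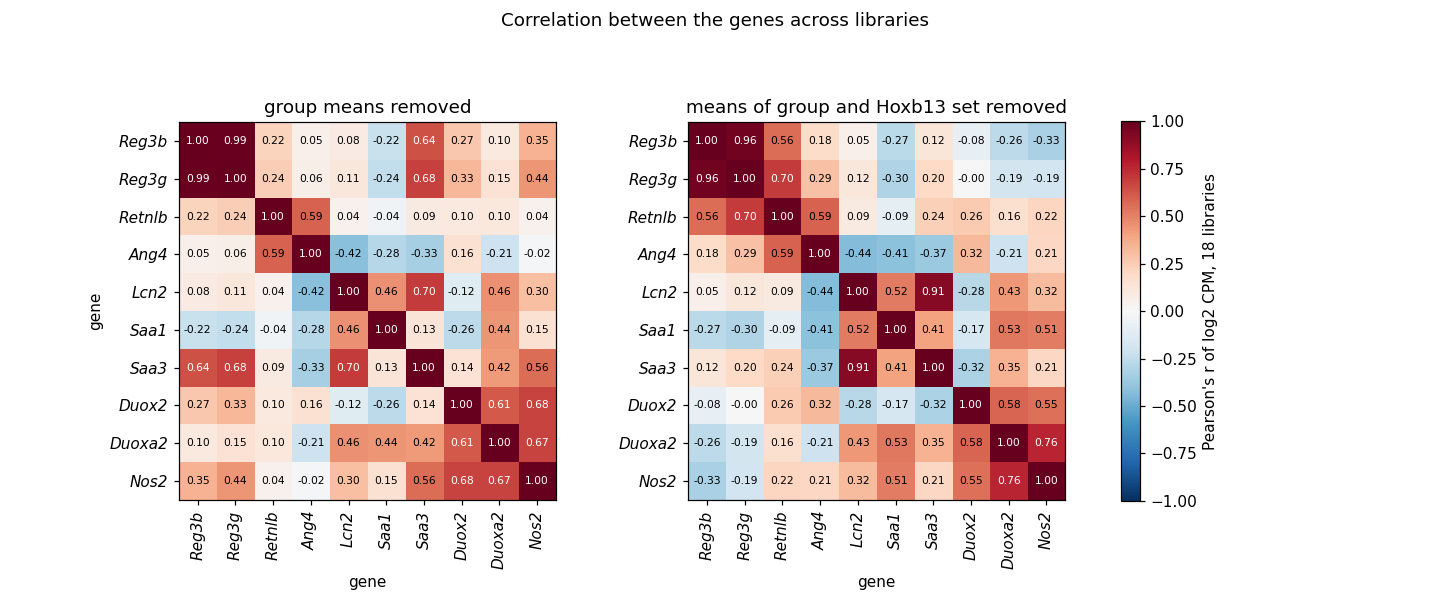
Pearson's r of log2 CPM between each 2 of the 10 genes over 18 libraries, with group means removed (left) or the means of group and Hoxb13 set removed (right), coloured from blue (negative) to red (positive). Removing the Hoxb13 sets leaves Reg3b and Reg3g at 0.96 and takes Saa3 with Reg3b to 0.12, against 0.64 on the left.

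By the same measure with group means removed, 15798 other genes were ranked by likeness to 4 of the genes. Those most like Duox2 were Ctnnal1 (r = 0.90), Alg2 (0.86) and Sbno2 (0.85). Those most like Reg3g were 1810065E05Rik, Chn2 and Ncoa7 (each r = 0.97), with r between 0.82 and 0.86 once the Hoxb13 sets were removed. Lcn2 was most like S100a8, a calprotectin subunit of neutrophils (r = 0.89), then Ifitm1 (0.89) and Ctla2a (0.88). Retnlb was most like Nudcd1 (r = 0.85), Tram1 (0.85) and Smim33 (0.84).

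Other effectors of antimicrobial defence, their cytokine inputs and the receptors and signalling factors between them were read from 3 lists. In the 3 comparisons of study groups edgeR called 0 of the 28 effectors, 0 of the 7 cytokines and 0 of the 15 receptors and signalling factors that were tested. At an unadjusted p under 0.05 for TNBS against vector, 9 effectors were higher and 1 lower, with a median log2 fold change over the 28 of 0.66. For IBC against TNBS 0 effectors had such a p, with 24 of the 28 lower, and for IBC against vector 4 were higher and 2 lower. Of the cytokines, 3 were higher and 1 lower at that p for TNBS against vector, 0 for IBC against TNBS and 3 higher for IBC against vector. Of the receptors and signalling factors, 3 were higher and 1 lower for TNBS against vector, and 1 was lower in each of the other comparisons. S100a9, the partner of S100a8 in calprotectin, averaged 8.55 ± 9.68 CPM in IBC, 23.4 ± 46.7 in TNBS and 0.436 ± 0.356 in vector (SD, n = 6 each). Its log2 fold change of TNBS against vector was 5.73 ± 1.29 (SE; edgeR adjusted p = 0.0909). Pigr, which carries IgA across the epithelium, averaged 2350 ± 674 CPM in IBC, 2097 ± 1270 in TNBS and 3293 ± 737 in vector.

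Among the cytokines, Il22 was close to the limit of detection. Its count was 0 in 5 of 6 vector libraries, where vector 4 had 1.25 CPM, and in 2 of 6 IBC and 1 of 6 TNBS libraries, with highest values of 1.12 CPM in IBC 2 and 2.86 CPM in TNBS 3. In the comparison by Hoxb13, Il22 rose by 3.77 ± 1.02 in the low libraries (SE; edgeR adjusted p = 0.0171). Among the 6 low libraries, Il22 was 0 in vector 3, which had their lowest Reg3b, 598 CPM. In the other low libraries Il22 ran from 0.281 CPM in IBC 5 to 2.86 CPM in TNBS 3. The part of Il22 in the Reg3b values was not tested. Il17a did not pass the filter on low counts and was at most 0.454 CPM. Il1b, an early inflammatory cytokine of myeloid cells, averaged 13.5 ± 12.3 CPM in IBC, 11.3 ± 9.18 in TNBS and 2.18 ± 1.35 in vector (SD, n = 6 each), with a log2 fold change of 2.38 ± 0.67 for TNBS against vector (SE; edgeR adjusted p = 0.138).

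In the comparison by Hoxb13, 4 of the 28 effectors tested rose and 5 fell, where edgeR called 15.6% of all genes. Reg3a, another lectin of the family, rose by 5.73 ± 1.16 and Ido1, which degrades tryptophan, by 4.34 ± 0.72, while Ang, a close relative of Ang4, and Noxa1, an oxidase activator, rose by 1.07 ± 0.26 and 0.45 ± 0.13 (SE, edgeR). Reg4, another lectin of the Reg family, was lower in the low libraries, with a log2 fold change of -4.28 ± 1.33, as were Wfdc2 (-3.07 ± 0.50), Pla2g2a (-2.96 ± 0.50), the oxidase Nox1 (-1.44 ± 0.33) and the lysozyme Lyz2 (-1.40 ± 0.33). Adjusted p for these 9 lay between 0.000370 and 0.0353 (edgeR). Of the 15 receptors and signalling factors tested, edgeR called 5 up and 1 down. Cdx2, Tlr5, Nod2, Nfkbiz and Myd88 rose, by 1.35, 0.85, 0.83, 0.47 and 0.34, and Hif1a was lower, at -1.25. Il18, an epithelial cytokine, was lower at -1.20 (edgeR adjusted p = 0.0334).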

How the data were processed

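The data are polyA RNA sequencing libraries of mouse colon, 6 each of IBC, TNBS and vector. The authors deposited 1 table with a count and an FPKM value per gene and library. Reads were trimmed with cutadapt 1.9, per the submitters' processing notes. The aligner, the genome build and any use of strand in counting were not given in the sources used here. Deposited counts of 4 were more frequent (19961 gene and library pairs) than counts of 3 (9977), so a fragment may be worth more than 1 count, and counting precision may be less than the totals give. No libraries held identical values.

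Counts were fitted in 1 edgeR 4.0.16 quasi-likelihood model of 18 libraries (R 4.3.3) with TMM scaling and filterByExpr, with the Benjamini-Hochberg adjustment taken over 20855 genes and a threshold of 0.05. The standard error is the log2 fold change divided by the square root of F. CPM uses TMM-scaled totals, and correlations between genes use log2 CPM with a prior count of 2, those with marker sums log2 of the CPM itself. The Hoxb13 sets divide libraries at 10 CPM. They were defined from these data, so they describe libraries and are not groups of the study. The scripts were tested on simulated counts. Alternatives were DESeq2 1.42.0, other scalings and filters, limma 3.58.1 on log2(FPKM + 1) and log2(FPKM + 0.1), subsets of libraries, the replicate number as a block, the Hoxb13 set as a term and each library left out. No label states that replicate numbers pair the libraries. Of 18 same-numbered pairs, 7 had a correlation of deviations from group means above 0.1. Differently numbered pairs were not compared and the Hoxb13 sets were not removed, so this cannot show whether the numbers pair libraries.

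The genes and lists were chosen with earlier results of these data known. All 10 genes are named whatever their result. Genes of the pathway lists are named where called in any comparison, with Duox1, Duoxa1, Saa2, Il22, Il17a, Il1b, S100a8, S100a9 and Pigr named in any case, and the 3 genes most like each of Duox2, Reg3g, Lcn2 and Retnlb among those of at least 1 CPM. Itln1, Defa24, Defa30, Mmp7, Lyz1, Car1, Krt20 and Epcam were named after their values were seen. S100a8 and S100a9 stand in both the effector and the neutrophil list, and Lyz2 in both the effector and the macrophage list.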

Additional observations from a re-analysis of the deposited data

Results flagged for a closer look

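In 11 of the 30 groups formed by 10 genes and 3 conditions, 1 library stood apart from the other 5, with a gap to its neighbour above 0.625 of the group's range. Chance gives about 1 in 20 for normally distributed values, but these CPM values are skewed, hold libraries low in Hoxb13 in every group and come from genes that vary together, so the 11 cannot be set against that rate. TNBS 3 was far above the other TNBS libraries for Reg3b (22679.5 CPM, others 0.581 to 5249), Reg3g (4669.9 CPM, others 0.819 to 747) and Nos2 (15.1 CPM, others 1.87 to 4.99). IBC 5 was far above the other IBC libraries for Reg3g (1944 CPM, others 0.538 to 573) and Saa3 (67.0 CPM, others 7.98 to 22.5). Both libraries are low in Hoxb13.

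Vector 4, also low in Hoxb13, was far above the other vector libraries for Duox2 (303 CPM, others 56.3 to 71.4), Duoxa2 (48.8 CPM, others 3.68 to 11.2) and Nos2 (16.2 CPM, others 0.464 to 2.76). Its Il22 was 1.25 CPM, where the other 5 vector libraries were at 0. Its summed neutrophil markers, at 42.4 CPM, lay within the vector range of 5.76 to 159. The 5.76 CPM belongs to vector 3, the other vector library low in Hoxb13, and the 159 CPM to vector 1, which is high in it.

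Saa1 stood apart in TNBS 5 (2889 CPM, others 202 to 711) and in vector 1 (1243 CPM, others 117 to 531). These libraries also had the highest summed neutrophil markers of their groups, 973 and 159 CPM. Of those markers, S100a8 and S100a9 had 80.9 and 118 CPM in TNBS 5 but 0.250 and 1.13 CPM in vector 1. In both libraries most of the sum thus came from other genes of the list. Ang4 stood apart in TNBS 6 (606 CPM, others 0.464 to 14.7). The causes were not tested.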

How the results depend on the processing

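No gene of the 10 changed its call between TNBS, IBC and vector under RLE or total scaling, either filter, limma, the 2 groups alone, the replicate block or counts divided by 4. Genes called between TNBS and vector, 0 of the 10 and 4 of all by edgeR, were 2 and 574 with DESeq2, 1 and 142 with the Hoxb13 set as a term, and 0 to 2 and 0 to 323 with each library left out. Among all genes they were 2 with totals only or a stricter filter, 1 with the replicate block, and 0 with no filter, limma at either pseudocount, the 2 groups alone, Hoxb13-high or Hoxb13-low libraries alone, or counts divided by 4. For IBC against TNBS all genes called were 2 with DESeq2 and 0 to 1 with each library left out. For IBC against vector they were 186 with DESeq2, 8 with the 2 groups alone, 4 with the Hoxb13 term, 30 in Hoxb13-high libraries alone and 0 to 5 with each library left out. By Hoxb13, 4 of the 10 were called, against 2 with the replicate block or with no study group in the fit and 2 to 4 with each library left out; all genes called were 1500 with the replicate block and 2428 to 5049 with each library left out. Saa3 and Nos2 were the calls lost, at adjusted p = 0.172 and 0.259 with the replicate block and 0.344 and 0.155 with no study group, and Nos2 also with no filter (0.0778). DESeq2 gave no adjusted p for Saa3 by Hoxb13.

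None of the directions that turned was called. For TNBS against vector, Retnlb gave 0.31 and 0.32 with limma on FPKM + 1 and + 0.1 and 0.26 with the replicate block, and in Hoxb13-low libraries alone Nos2 gave -0.087 and Duox2 -0.051. Leaving out 1 library gave -0.024 to 2.21 for Nos2 and -0.23 to 1.28 for Saa1. For IBC against TNBS, Saa1, Nos2 and Duox2 gave 0.047, 0.069 and 0.083 with totals only, 0.32, 0.063 and 0.23 with limma on FPKM + 1 (Ang4 0.59), and 0.33, 0.11 and 0.26 with FPKM + 0.1 (Ang4 0.85, Saa3 0.19). The replicate block gave 0.26 for Reg3b, 0.31 for Reg3g, 0.14 for Saa1, 0.29 for Saa3, 0.15 for Nos2, 0.083 for Duox2 and 0.17 for Ang4. Nos2 and Duox2 gave 0.24 and 0.090 with the Hoxb13 term and 0.51 and 0.39 in Hoxb13-high libraries alone, while Hoxb13-low libraries alone gave 0.28 for Saa1, 0.97 for Retnlb and 2.84 for Ang4. Leaving out 1 library gave -2.91 to 0.68 for Reg3b, -2.95 to 1.29 for Reg3g, -0.52 to 0.80 for Saa1, -0.32 to 0.53 for Nos2, -0.20 to 0.27 for Duox2 and -2.24 to 2.80 for Ang4. For IBC against vector, Retnlb gave 0.28 and 0.29 with limma, Hoxb13-low libraries alone gave -0.93 for Nos2, -0.73 for Duox2 and 1.27 for Ang4, and leaving out 1 library gave -0.40 to 2.57 for Reg3g. By Hoxb13, Lcn2 gave -0.35 with the replicate block, and leaving out 1 library gave -0.23 to 0.85 for Lcn2 and -3.74 to 1.02 for Ang4. Fits that leave 2 libraries a group assume a shared spread. The causes were not tested.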
